A study of Mus musculus with 9 samples.

Results

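Mt2A (metallothionein 2A), the metal-responsive transcription factor Mtf1, the zinc exporter Slc30a1 and the zinc importers Slc39a8 and Slc39a14 were followed in neonatal rat ventricular myocytes (NRVMs) overexpressing LacZ, Nrf1 or Nrf2. They are 5 of the 15144 gene symbols listed in at least 1 of 3 tables of gene expression, each of which compares a pair of the groups. Mt2A was chosen by its group means, which were lower with Nrf1 and higher with Nrf2 than with LacZ, and its regulator and zinc transporters were added with results of these comparisons in view. Their values are therefore given as a description, without a test.

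Metallothioneins are small, cysteine-rich proteins that bind zinc and copper and buffer the free metal in the cell. When free zinc rises, it binds the zinc fingers of Mtf1, which moves to the nucleus and activates metallothionein genes and Slc30a1 through metal response elements. Slc30a proteins carry zinc out of the cytosol, across the plasma membrane or into organelles and vesicles, and Slc39a proteins carry it into the cytosol. Glucocorticoids, interleukin-6 and oxidative stress are further known inducers of metallothionein genes.

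The cells came from Sprague Dawley rats aged 1 or 2 days and were infected with adenovirus at a multiplicity of infection of 50 and harvested 48 h later, with 3 libraries for each of 3 groups. LacZ, a bacterial enzyme, served as control, and all 3 groups received a virus, so uninfected cells are not part of the comparison. Nrf1 (gene Nfe2l1) and Nrf2 (gene Nfe2l2) are related transcription factors of the antioxidant response. The cells are a primary culture, so each group can hold other cardiac cell types beside cardiomyocytes. The tables hold group means only, from which the whole read counts of each library were solved, and the libraries are numbered arbitrarily within a group because the means do not carry the replicate numbers. The labels do not say whether the 3 libraries of a group came from separate cell preparations, so the spread given here may be technical.

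The 9 libraries held 7894221 to 11960378 counted reads. Levels are given as CPM, the reads of a gene per 1000000 counted reads of the library, and since they are not corrected for gene length they are compared between groups and not between genes. Fold changes are log2 ratios of the authors' group means, which were scaled by size factors within each pair of groups. Nfe2l2 had 368 to 373 CPM with LacZ, 287 to 294 CPM with Nrf1 and 6798 to 7949 CPM with Nrf2. No library counts of Nfe2l1 were at hand, so the overexpression of Nrf1 was not checked here. Of 10 cardiomyocyte markers, 9 were found and none of them was at 0, with summed levels of 17040 to 19481 CPM with LacZ, 16445 to 16659 CPM with Nrf1 and 18315 to 18592 CPM with Nrf2. This sum hides opposite changes with Nrf1. At the thresholds given below for all genes, limma called 2 of the 9 genes higher with Nrf1, Actc1 and Ryr2. It called 3 lower with Nrf1, Myh7, Tnni3 and Nppa, and 0 higher or lower with Nrf2. All 10 fibroblast markers were found too, and their sum was 13127 to 14028 CPM with LacZ, 3216 to 3461 CPM with Nrf1 and 6486 to 7028 CPM with Nrf2. This sum was made up mostly of Col1a1 (mean 9802, 2445 and 5006 CPM) and Col3a1 (2840, 642 and 1341 CPM). At the same thresholds, limma called 10 of these markers lower with Nrf1 and 8 with Nrf2, and 0 higher with either. Between Nrf2 and Nrf1, 7 were called higher with Nrf2 and 1, Tcf21, lower. The 10 leukocyte markers summed to 204 to 304 CPM with LacZ, 111 to 116 CPM with Nrf1 and 105 to 115 CPM with Nrf2, and the 8 endothelial markers to 150 to 158, 97.6 to 107 and 92.2 to 109 CPM. The 6 smooth muscle and pericyte markers summed to 2613 to 2943 CPM with LacZ, 3807 to 3882 CPM with Nrf1 and 3306 to 3527 CPM with Nrf2, a sum made up mostly of Acta2 (mean 1872, 3186 and 2472 CPM), which neonatal cardiomyocytes can also express. With Nrf1, limma called 1 of these 6 genes higher, Acta2, and 3 lower, Myh11, Pdgfrb and Rgs5, at the thresholds given below for all genes. No marker found in these other lists was at 0 in any group, and the source of these reads was not tested. In bulk samples, fewer cells of a type and less RNA per cell cannot be told apart.

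Mt2A stood at a low level in every group and was lowest with Nrf1 and highest with Nrf2. In the LacZ libraries it was counted 32, 33 and 45 times, which corresponds to 3.42, 4.01 and 5.70 CPM (4.37 ± 1.19, SD, n = 3). With Nrf1, 26, 19 and 22 reads gave 2.51, 1.88 and 2.56 CPM (2.32 ± 0.379, SD, n = 3). With Nrf2, 74, 63 and 70 reads gave 6.19, 5.55 and 6.86 CPM (6.20 ± 0.658, SD, n = 3). The Nrf1 libraries lay below all LacZ and all Nrf2 libraries, whereas the highest LacZ library lay above the lowest Nrf2 library on this scale. Over the 3 libraries of a group, the reads summed to 110 with LacZ (95% Poisson interval 90.4 to 133), to 67 with Nrf1 (51.9 to 85.1) and to 207 with Nrf2 (180 to 237), intervals that cover counting error only. The coefficient of variation between the LacZ libraries was 27.1%, against 16.5% for counting error alone, and with Nrf1 and Nrf2 it was 16.3% and 10.6%, against 21.2% and 12.0%.

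The authors' mean of Mt2A was 38.5 with LacZ and 21.4 with Nrf1, a log2 ratio of -0.85 (SE 0.26, n = 3 per group). In the table that pairs LacZ with Nrf2, the means were 41.1 and 61.9, a ratio of 1.51 and a log2 ratio of 0.59 (SE 0.24). Nrf2 and Nrf1 compared directly gave means of 64.4 and 23.9, a 2.69-fold difference and a log2 ratio of 1.43 (SE 0.17). On the authors' size factors the libraries of Mt2A did not overlap in any of these pairs, and the closest were LacZ and Nrf2, with 32.3 to 53.6 normalized reads against 55.5 to 68.7. Scaled to library totals instead, LacZ and Nrf2 overlapped and their log2 ratio was 0.50, under the 1.5-fold used to call genes. The same ratio was 0.45 without LacZ library 1, 0.53 without LacZ library 2, 0.51 without Nrf2 library 3 and 0.83 without LacZ library 3, so that the 1.5-fold was met or not depending on single libraries. The ratio of Nrf1 to LacZ remained past 1.5-fold in each case, at -0.61 without LacZ library 3 and -0.99 without LacZ library 1.

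**Figure D1:**
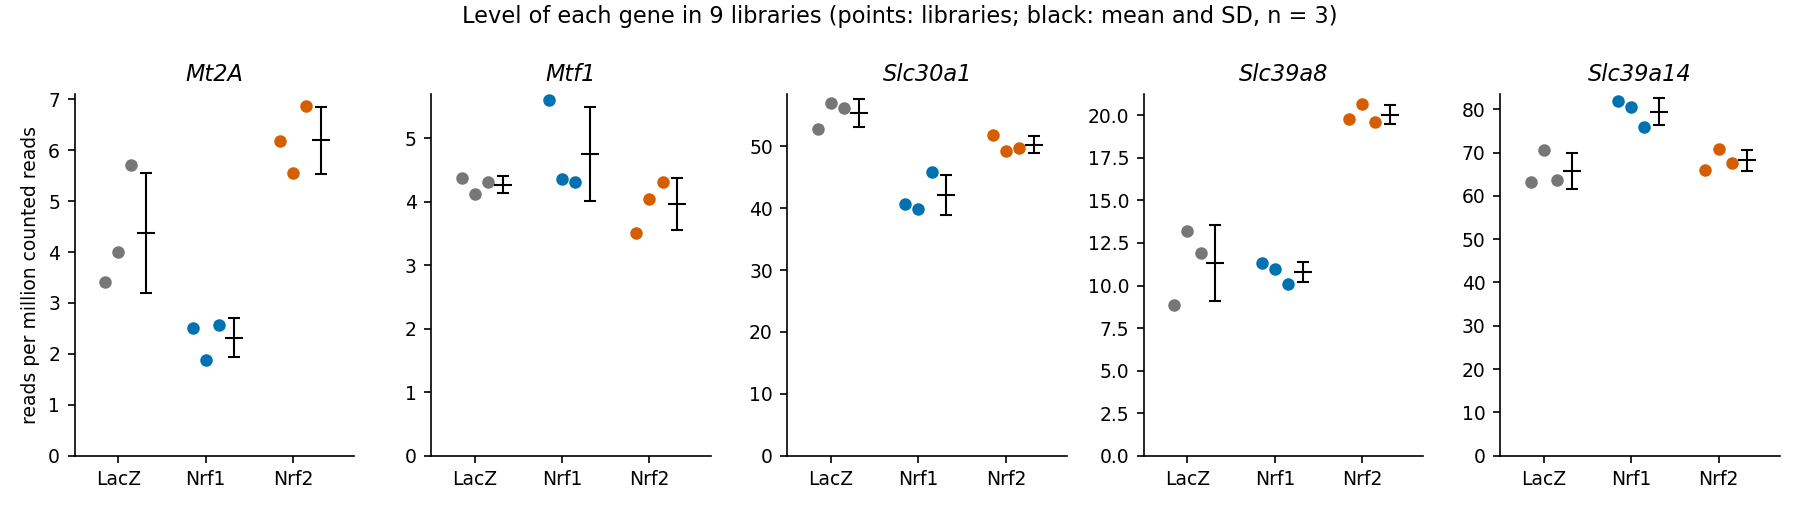
Level of Mt2A, Mtf1, Slc30a1, Slc39a8 and Slc39a14 in CPM (vertical axes, starting at 0) in each of the 9 libraries. Coloured points are libraries and the black bars give mean and SD (n = 3). Mt2A is between 1.88 and 2.56 with Nrf1 and between 5.55 and 6.86 with Nrf2, and Slc39a8 is between 19.6 and 20.7 with Nrf2, above the 8.86 to 13.2 of LacZ.

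Few genes shared the pattern that chose Mt2A. Of 11396 genes whose mean reached 10 in at least 1 group of each table with LacZ, 63 (0.553%) were more than 1.5-fold lower with Nrf1 and more than 1.5-fold higher with Nrf2 by their group means, and Mt2A was the sole gene among them from the lists of metallothioneins, zinc transporters and Mtf1. Ordered by the distance between both log2 ratios, Mt2A was number 58 of the 63. The LacZ libraries serve both comparisons, and a high or low LacZ value enters each of them. Among 8466 genes that reached a mean of 100 in both tables, the gene nearest to Mt2A by its pair of log2 ratios was Tcn2, which encodes the vitamin B12 carrier transcobalamin 2. Its log2 ratios were -0.79 with Nrf1 and 0.55 with Nrf2, a Euclidean distance of 0.073 from those of Mt2A on the log2 scale. It was followed by Rgma, a bone morphogenetic protein co-receptor (-0.86 and 0.45), Elmo1, a regulator of Rac activation (-0.73 and 0.46), Tnni1, slow skeletal troponin I (-0.93 and 0.44), and Vcam1, an endothelial adhesion molecule (-1.03 and 0.53). All 5 of these nearest genes missed the 1.5-fold with Nrf2.

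**Figure D2:**
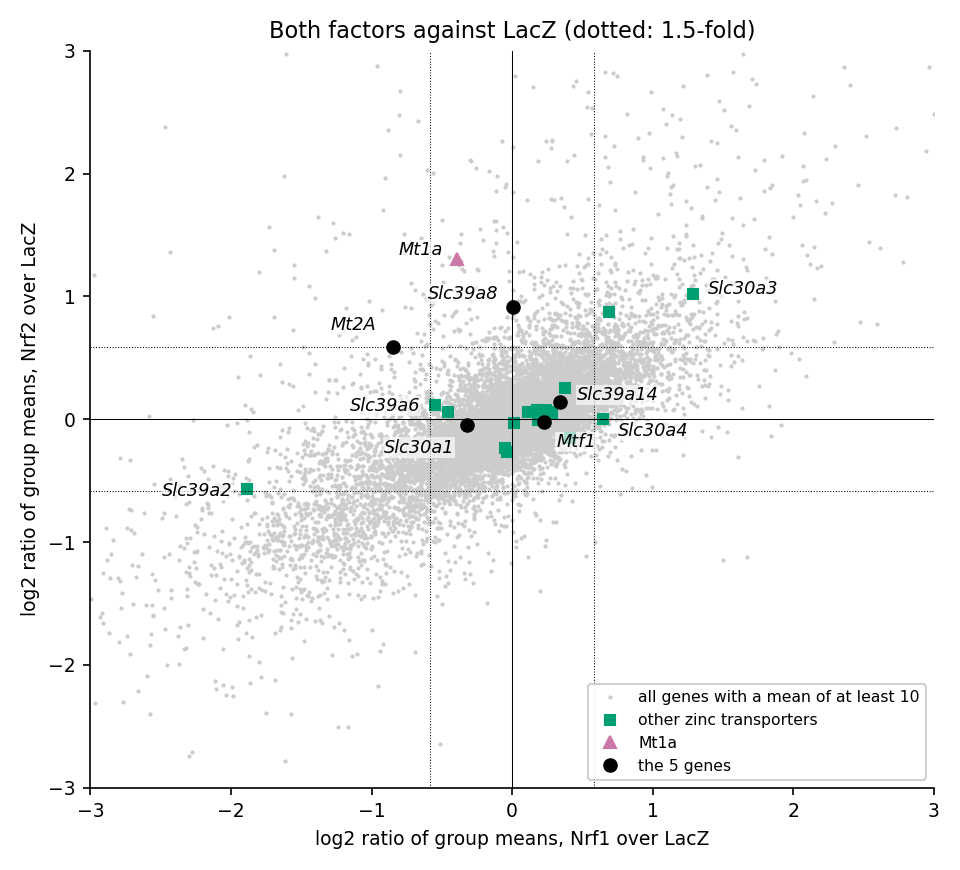
Log2 ratio of group means with Nrf1 (horizontal axis) and with Nrf2 (vertical axis), each over LacZ, for genes whose mean reached 10. The dotted lines mark 1.5-fold, both axes share the LacZ libraries, and 74 of 11393 genes lie outside the plotted range of -3 to 3. Mt2A lies in the upper left at -0.85 and 0.59, Slc39a8 near the vertical axis at 0.00 and 0.91, and Mtf1, Slc30a1 and Slc39a14 inside the 1.5-fold lines.

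The other metallothionein genes were tested across all genes with limma and Benjamini-Hochberg adjustment, and a gene was called at an adjusted p-value under 0.05 and a fold above 1.5. With Nrf1, 11.3% of 11433 tested genes were called higher and 17% lower than with LacZ, with Nrf2 9.18% and 9.56% of 11602, and between Nrf2 and Nrf1 11.1% and 4.62% of 11486. Mt1a, a second isoform of the same metal-binding family, was counted 36, 24 and 24 times with LacZ (3.84, 2.91 and 3.04 CPM), 20, 23 and 25 times with Nrf1 (1.93, 2.28 and 2.91 CPM) and 80, 102 and 72 times with Nrf2 (6.69, 8.98 and 7.06 CPM). All Nrf2 libraries of Mt1a were above all others, and those of LacZ and Nrf1 overlapped on the authors' size factors, while the lowest LacZ and the highest Nrf1 library both stood at 2.91 CPM. Mt1a rose with Nrf2 over LacZ by 1.27 on the log2 scale of normalized reads plus 1 (SE 0.18, limma adjusted p = 3.54e-05) and was higher with Nrf2 than with Nrf1 by 1.65 (SE 0.19, adjusted p = 6.65e-07). Its difference between Nrf1 and LacZ was -0.38 (SE 0.24) and did not pass the test (limma adjusted p = 0.164). Mt1a and Mt2A are close paralogs whose reads can be hard to assign, so the split of reads between them is uncertain.

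Mt3, the metallothionein best known from brain, had 0 reads in the 3 LacZ libraries. With Nrf1 it was counted 17, 11 and 11 times (1.64, 1.09 and 1.28 CPM), and with Nrf2 37, 18 and 10 times (3.09, 1.59 and 0.981 CPM). No library of either factor overlapped with the LacZ libraries, while the Nrf2 libraries spanned those of Nrf1. Against a floor of 3 reads over all 3 LacZ libraries (0.118 CPM), Mt3 was at least 11.4-fold higher with Nrf1 and at least 16.5-fold higher with Nrf2. Mt3 reached the minimum mean of 10 through the groups where it is high, so no test of these 2 differences is given. The difference between Nrf2 and Nrf1 was 0.35 on the log2 scale (SE 0.35, limma adjusted p = 0.404). Mt4, a metallothionein of stratified epithelium, was listed in 2 tables with means of at most 0.340, and Mt1 and Mt1m were not found among the unique gene symbols of any table.

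Mtf1, the zinc sensor that controls metallothionein genes, reached 1.5-fold in no pair of groups. It was counted 41, 34 and 34 times with LacZ (4.38, 4.13 and 4.31 CPM), 58, 44 and 37 times with Nrf1 (5.60, 4.35 and 4.30 CPM) and 42, 46 and 44 times with Nrf2 (3.51, 4.05 and 4.31 CPM). One Nrf1 library stood above the other 8 libraries, which lay between 3.51 and 4.38 CPM. The log2 ratio was 0.23 (SE 0.13) for Nrf1 over LacZ, -0.02 (SE 0.09) for Nrf2 over LacZ and -0.25 (SE 0.15) for Nrf2 over Nrf1. Nrf1 and LacZ did not overlap on the authors' size factors and overlapped when scaled to library totals, and in the other pairs the libraries overlapped on both scales. The level of the RNA does not show whether the protein was active, since Mtf1 is controlled mainly by zinc binding and nuclear entry.

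Slc30a1, which exports zinc through the plasma membrane and is itself an Mtf1 target, was lowest with Nrf1. Its levels were 52.8, 57.0 and 56.2 CPM with LacZ (55.4 ± 2.24, SD, n = 3), 40.7, 39.9 and 45.9 CPM with Nrf1 (42.2 ± 3.30) and 51.8, 49.3 and 49.7 CPM with Nrf2 (50.3 ± 1.36). The Nrf1 libraries lay below all others. The authors' means were 487 and 390 for LacZ and Nrf1, a log2 ratio of -0.32 (SE 0.07), and 435 and 522 for Nrf1 and Nrf2, a log2 ratio of 0.26 (SE 0.07). For LacZ and Nrf2 they were 520 and 502, a log2 ratio of -0.05 (SE 0.04). These libraries overlapped on the size factors, but scaled to library totals the log2 ratio was -0.14 and all Nrf2 libraries were below all LacZ libraries. No ratio of Slc30a1 reached 1.5-fold.

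Slc39a8, an importer that carries zinc as well as manganese and iron into the cytosol, was highest with Nrf2. It had 8.86, 13.2 and 11.9 CPM with LacZ (11.3 ± 2.24, SD, n = 3), 11.3, 11.0 and 10.1 CPM with Nrf1 (10.8 ± 0.611) and 19.8, 20.7 and 19.6 CPM with Nrf2 (20.04 ± 0.575). All Nrf2 libraries stood above all LacZ and Nrf1 libraries, and the Nrf1 libraries lay within the range of LacZ. The authors' means were 106 with LacZ and 200 with Nrf2, a 1.88-fold difference and a log2 ratio of 0.91 (SE 0.17). Between Nrf1 and Nrf2 they were 111 and 208, a log2 ratio of 0.90 (SE 0.05). Between LacZ and Nrf1 they were 99.6 and 99.8, a log2 ratio of 0.00 (SE 0.17), which ran from -0.14 without LacZ library 1 to 0.12 without LacZ library 2. The ratio of Nrf2 to LacZ was past 1.5-fold under every alternative tried, from 0.77 without LacZ library 1 to 1.03 without LacZ library 2.

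Slc39a14, a related importer of zinc, iron and manganese, was highest with Nrf1. Its levels were 63.2, 70.6 and 63.6 CPM with LacZ (65.8 ± 4.20, SD, n = 3), 82.0, 80.5 and 75.9 CPM with Nrf1 (79.5 ± 3.14) and 66.1, 70.9 and 67.7 CPM with Nrf2 (68.2 ± 2.46). All Nrf1 libraries lay above the other 6. The log2 ratio was 0.34 (SE 0.06) for Nrf1 over LacZ and -0.21 (SE 0.05) for Nrf2 over Nrf1, from means of 579 and 735 and of 819 and 708. For Nrf2 over LacZ it was 0.14 (SE 0.06), where the highest LacZ library had 658.3 normalized reads and the lowest Nrf2 library 658.5, and scaled to library totals these groups overlapped. No ratio of Slc39a14 reached 1.5-fold.

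The groups thus ordered the 5 genes differently. Mt2A and Slc39a8 had their highest means with Nrf2, Slc39a14 and Mtf1 with Nrf1, and Slc30a1 with LacZ. On the authors' size factors, the libraries of Nrf1 and LacZ did not overlap for 4 of the 5 genes, those of Nrf2 and LacZ for 3 and those of Nrf2 and Nrf1 for 4. Over all genes tested, 70.6%, 61.7% and 63.7% did not overlap in these pairs, so this property was common. The ratio of group means passed 1.5-fold for 1 gene, Mt2A, between Nrf1 and LacZ, and for 2 genes, Mt2A and Slc39a8, both between Nrf2 and LacZ and between Nrf2 and Nrf1. Over all genes with a mean that reached 10, it did so for 30%, 20.7% and 17.5% in these pairs, and nothing is read from the comparison with the 5 genes, which were chosen with these values in view. Levels of the fibroblast, leukocyte and endothelial markers given above also differed between the groups, and their part in the values of the 5 genes was not tested.

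Of the other 21 transporters in the lists, 18 had enough reads to be tested, 7 exporters of the Slc30a family and 11 importers of the Slc39a family. Slc30a8, Slc30a10 and Slc39a12 had means of at most 5.06 in the tables that listed them. At both thresholds, 2 exporters were higher and 1 importer lower with Nrf1 than with LacZ, 1 exporter was higher with Nrf2 than with LacZ, and between Nrf2 and Nrf1 2 importers were higher and 1 exporter lower. Over all genes tested, 28.3%, 18.7% and 15.8% were called in either direction in these pairs, so calls were common. The median log2 fold change of the 7 exporters, which leave out Slc30a1, was 0.29 with Nrf1 and 0.06 with Nrf2, beside 0.0032 and -0.0019 over all genes tested. For the 11 importers it was 0.01 with Nrf1 and -0.01 with Nrf2. Over genes with a mean of at least 100, the median log2 ratio of group means was 0.05 with Nrf1 and 0.01 with Nrf2.

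Slc30a3, which loads zinc into synaptic and other vesicles, rose with both factors. It had 21.6, 16.8 and 18.2 CPM with LacZ, 44.3, 42.8 and 44.5 CPM with Nrf1 and 33.6, 36.5 and 37.5 CPM with Nrf2. Every library of either factor exceeded every LacZ library. The log2 fold change was 1.29 (SE 0.09, limma adjusted p = 4.97e-09) with Nrf1 and 1.02 (SE 0.10, adjusted p = 5.64e-07) with Nrf2. The difference between Nrf2 and Nrf1, -0.28 (SE 0.06, limma adjusted p = 0.000607), passed the p-value threshold and not the fold.

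Slc30a4, a vesicular zinc exporter, was higher with Nrf1 than in the other groups. Its levels were 148, 160 and 155 CPM with LacZ, 223, 235 and 232 CPM with Nrf1 and 149, 140 and 146 CPM with Nrf2. The LacZ and Nrf2 libraries shared a range below all Nrf1 libraries. Slc30a4 rose with Nrf1 by 0.65 on the log2 scale (SE 0.04, limma adjusted p = 1.22e-09), or 0.58 and just under 1.5-fold when scaled to library totals. With Nrf2 the difference from LacZ was 0.00 (SE 0.04, adjusted p = 0.974), and Nrf2 was lower than Nrf1 by 0.65 (log2 -0.65, SE 0.03, limma adjusted p = 1.66e-11).

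By the adjusted p-value alone, which 34.3% of all tested genes passed as higher and 32.5% as lower with Nrf1, 5 of the 7 exporters were higher with Nrf1 than with LacZ and 0 lower. They were Slc30a3 and Slc30a4 and, with smaller changes, Slc30a5 (log2 0.29, SE 0.05), Slc30a7 (0.26, SE 0.06) and Slc30a9 (0.19, SE 0.05), which act in the secretory pathway and, for Slc30a9, in mitochondria. Scaled to library totals, Slc30a5, Slc30a7 and Slc30a9 stood at 0.21, 0.19 and 0.12. Slc30a6, the partner of Slc30a5, did not pass (0.24, SE 0.10, limma adjusted p = 0.0575). Between Nrf2 and Nrf1, a comparison that shares the Nrf1 libraries, Slc30a3, Slc30a4, Slc30a5, Slc30a7 and Slc30a9 were lower with Nrf2 by this threshold, which 29.8% of all genes passed as lower. With Nrf2 over LacZ, 1 of the 7 exporters, Slc30a3, was higher and 0 lower by this threshold, against 28.6% and 26% of all genes. Of the 11 importers, 2 were higher and 3 lower with Nrf1 than with LacZ, 1 was higher and 3 lower with Nrf2 than with LacZ, and 3 were higher and 4 lower with Nrf2 than with Nrf1, where 28.8% of all genes were higher. Slc30a1, described above, had its lowest levels with Nrf1.

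**Figure D3:**
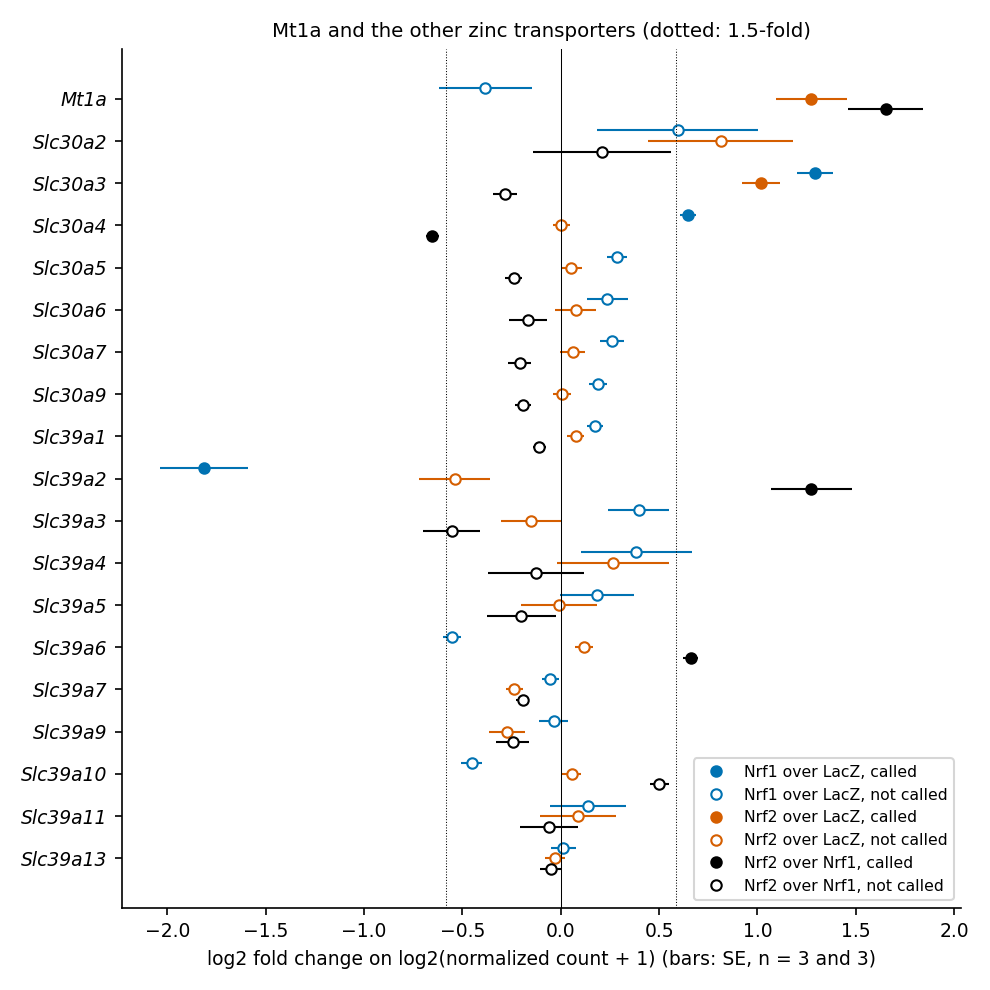
Log2 fold changes of Mt1a and of the 18 other zinc transporters tested, on the scale of log2(normalized reads + 1), for the 3 pairs of groups (bars: SE, n = 3 per group). Filled points were called at an adjusted p-value under 0.05 and a fold above 1.5 (dotted lines). Slc30a3 lies at 1.29 and 1.02 over LacZ with Nrf1 and Nrf2, and Slc39a2 at -1.82 with Nrf1.

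Slc39a2, a plasma membrane zinc importer, showed the largest change among the transporters tested. It was counted 79, 45 and 59 times with LacZ (8.43, 5.46 and 7.47 CPM), 20, 15 and 18 times with Nrf1 (1.93, 1.48 and 2.09 CPM) and 50, 55 and 46 times with Nrf2 (4.18, 4.84 and 4.51 CPM). The groups did not overlap and followed the order Nrf1, Nrf2, LacZ. Slc39a2 fell by 1.82 on the log2 scale with Nrf1 (SE 0.22, limma adjusted p = 3.03e-06) and was higher with Nrf2 than with Nrf1 by 1.27 (SE 0.21, adjusted p = 3.92e-05). The difference of Nrf2 from LacZ was -0.54 (SE 0.18, limma adjusted p = 0.0203), short of the 1.5-fold, which it passed without LacZ library 2, without Nrf2 library 2 or when scaled to library totals (-0.63).

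Slc39a6 and Slc39a10, importers of the plasma membrane that form a complex, were lower with Nrf1 than in both other groups. Slc39a6 had 129 to 140 CPM with LacZ, 86.8 to 89.8 CPM with Nrf1 and 135 to 140 CPM with Nrf2, and Slc39a10 had 74.7 to 78.3, 51.1 to 55.5 and 74.1 to 76.0 CPM. In both genes the Nrf1 libraries lay below all others. With Nrf1 the log2 fold changes over LacZ were -0.55 for Slc39a6 (SE 0.05, limma adjusted p = 3.4e-08) and -0.45 for Slc39a10 (SE 0.05, adjusted p = 2.35e-06), both short of 1.5-fold, and scaled to library totals Slc39a6 passed it at -0.62. Nrf2 exceeded Nrf1 by 0.66 for Slc39a6 (SE 0.04, adjusted p = 4.55e-11), which was called, and by 0.50 for Slc39a10 (SE 0.05, adjusted p = 6.72e-08). Between Nrf2 and LacZ they differed by 0.12 (SE 0.04) and 0.06 (SE 0.05).

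The remaining importers with at least 100 normalized reads moved less. Slc39a7, which releases zinc from the endoplasmic reticulum, was -0.24 (SE 0.04, limma adjusted p = 0.000294) with Nrf2 and -0.05 (SE 0.04, adjusted p = 0.294) with Nrf1. Slc39a9 was -0.27 (SE 0.09, limma adjusted p = 0.0208) with Nrf2 and -0.04 with Nrf1. Slc39a1 was 0.18 (SE 0.04, limma adjusted p = 0.00101) with Nrf1 and 0.08 with Nrf2, and Slc39a13, a Golgi zinc transporter needed for connective tissue, was 0.01 with Nrf1 and -0.03 with Nrf2. None of these 4 genes reached 1.5-fold in any pair.

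Lists of genes for other metals were read in the same way. Of 10 copper genes tested, 1 was called higher and 0 lower with each factor, near the share of all genes called higher, 11.3% with Nrf1 and 9.18% with Nrf2. It was Cox17, the copper chaperone of cytochrome oxidase (log2 0.70, SE 0.06, limma adjusted p = 2.31e-08 with Nrf1 and 0.59, SE 0.06, adjusted p = 6.36e-07 with Nrf2). Of 8 genes of iron and manganese transport, 2 were called higher and 1 lower with Nrf1, and 2 higher and 0 lower with Nrf2. Over all genes, 17% were called lower with Nrf1 and 9.56% with Nrf2. Slc40a1, the iron exporter ferroportin, rose by 1.06 with Nrf1 (SE 0.15, limma adjusted p = 9.91e-06) and by 2.11 with Nrf2 (SE 0.12, adjusted p = 1.96e-09). The transferrin receptor Tfrc was called higher with Nrf2 at 0.82 (SE 0.03, limma adjusted p = 4.04e-11), and Tmem165, a Golgi manganese transporter, with Nrf1 at 0.73 (SE 0.05, adjusted p = 2.05e-09).

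Genes of other known inducers of metallothioneins were read beside Mt2A. Over all genes tested, 11.3% were called higher and 17% lower with Nrf1, and 9.18% and 9.56% with Nrf2. Of 9 glucocorticoid-responsive genes, 0 were called higher and 2 lower with Nrf1, and 0 higher and 1 lower with Nrf2. The numbers called lower at both thresholds were thus near the share of all genes. By the adjusted p-value alone, 7 of the 9 were lower and 1 higher with Nrf1, and 5 lower and 1 higher with Nrf2. Over all genes, 32.5% were lower and 34.3% higher with Nrf1 by this threshold, and 26% and 28.6% with Nrf2. Their median log2 fold change was -0.21 with Nrf1 and -0.23 with Nrf2. Examples of the genes called lower are Tsc22d3, which encodes the glucocorticoid-induced leucine zipper (log2 -0.61 with Nrf1, SE 0.07, limma adjusted p = 1.95e-06) and the transcription factor gene Klf15 (-0.63 with Nrf2, SE 0.13, adjusted p = 0.000825). Both passed the p-value threshold with the other factor too, short of 1.5-fold. Tsc22d3 was -0.52 with Nrf2 (SE 0.07, limma adjusted p = 1.61e-05), and Klf15 was -0.57 with Nrf1 (SE 0.13, adjusted p = 0.00119). Neither passed it between Nrf2 and Nrf1 (limma adjusted p = 0.294 and 0.676). Between Nrf2 and Nrf1, 2 of the 9 genes were called higher with Nrf2 and 1 lower, beside 11.1% and 4.62% of all genes. The lower gene was Dusp1, a phosphatase gene (-0.64, SE 0.06, limma adjusted p = 3.01e-08), and the higher genes, named after their values were seen, were Errfi1 (0.59, SE 0.06, adjusted p = 3.34e-07) and Zbtb16 (0.73, SE 0.31, adjusted p = 0.0485). Of 13 genes of interleukin-6 and Stat3 signalling, 7 were called lower with Nrf1, 6 with Nrf2 and 0 higher with either. Il6 fell by 1.51 with Nrf1 (SE 0.21, limma adjusted p = 9.93e-06) and by 1.59 with Nrf2 (SE 0.23, adjusted p = 3.39e-05), and the acute-phase gene Lcn2 fell by 1.69 with Nrf1 (SE 0.23, adjusted p = 1.1e-05) and fell by 1.53 with Nrf2 (SE 0.16, adjusted p = 1.65e-06). Their median log2 fold change was -0.64 for Nrf1 and -0.47 for Nrf2. Of 8 antioxidant reference genes, 4 were called higher with Nrf1 and 8 with Nrf2, among them Srxn1, sulfiredoxin (1.71, SE 0.05, adjusted p = 2.08e-13, and 2.77, SE 0.05, adjusted p = 5.5e-15). The part of any of these lists in the values of Mt2A was not tested.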

How the data were processed

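The 9 NRVM libraries, 3 per group, were read as 75-base single ends. The submitters' processing notes and the study's methods name FastQC 0.11.4, HISAT2 2.0.4 with the rat build Rnor_6.0, SAMtools 0.1.18 for duplicate removal, featureCounts 1.6.0 and edgeR 3.20.5, and the strand setting of the counting is not given in the sources used here. The organism field of the labels says mouse, whereas the strain, the cell type and the build are of rat. The signal the authors deposited is, per gene and pair of groups, the mean over 3 libraries of read counts divided by size factors. The tables also hold the authors' fold changes, p-values and adjusted p-values, which were not used, and 0 columns of single samples were left unused.

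Each deposited mean is a sum of 3 whole read counts, each times a library weight, and the weights recur as the lowest values of a table. Since each group is in 2 tables with different weights, the counts were solved as the whole numbers that give both means within their printed digits. A single solution was found for 14678 of 14679 genes with LacZ, 14579 of 14579 with Nrf1 and 14746 of 14746 with Nrf2, and means of different genes set together gave 0 solutions in 3509, 3408 and 3518 trials. The solved libraries carry no replicate numbers. The design had allowed for this step where the digits sufficed.

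limma 3.58.1 (R 4.3.3, trend, Benjamini-Hochberg over all genes tested) was run on log2(normalized reads + 1) of genes whose mean reached 10 in at least 1 group, separately for each pair, and genes were called at an adjusted p-value under 0.05 and a fold above 1.5. Fold changes on this scale understate those of low genes. Tested on simulated data, 185, 180 and 185 of 200 genes given a log2 change of 1 were recovered for Nrf1 over LacZ, Nrf2 over LacZ and Nrf2 over Nrf1, with 4, 3 and 1 unchanged genes called of 11433, 11602 and 11486 genes run. The simulation gave every gene the same dispersion between libraries and changed fewer genes than were called in the data. These rates may therefore not hold for the data. Python 3.11.15 and scipy 1.17.1 were used for the rest.

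Named were the 5 genes, the metallothioneins, other zinc transporters that were called or had a mean of at least 100, at most 3 called genes with such a mean from each other list, and the 5 genes nearest to Mt2A. The genes and lists were chosen with earlier results of these data known. Promoter motifs, part of the design, were not searched, because the reference at hand is mouse, and no sequence is shown for the same reason. The limma p-values rest on 3 libraries per group. They set the difference between groups against the spread between libraries, which limma moderates with that of all genes tested. This spread may be technical, as said above. Alternatives were another fold, p-value threshold, filter, pseudocount, centre and scaling, and leaving out each library.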

Additional observations from a re-analysis of the deposited data

How the results depend on the processing

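Of 255 values recomputed over 25 results, 229 stayed within the spread or within 1.5 times the count, and 134 of 135 log2 ratios of the 5 genes moved by less than 1 SD. This SD is that of single libraries. Leaving out a library can hardly move a group mean that far, so nothing is read from the count for those settings. The ratio of Mt2A for Nrf2 over LacZ stayed within 1 SD, although it fell under 1.5-fold in some settings, as given above. The exception among the log2 ratios was Slc30a1 for Nrf2 over LacZ, at -0.14 scaled to library totals. The other zinc transporters called numbered 10, 5 and 12 by adjusted p-value alone for Nrf1 over LacZ, Nrf2 over LacZ and Nrf2 over Nrf1. For Nrf2 over LacZ they were 2 scaled to library totals and 1 to 3 with a library left out (3 without LacZ library 2 or without Nrf2 library 2), and for Nrf2 over Nrf1 1 at a fold above 2. Of all genes, a fold above 2 gave 469 higher and 1073 lower with Nrf1, 524 and 455 with Nrf2 and 645 and 136 for Nrf2 over Nrf1, in place of 1290 and 1943, 1065 and 1109, and 1280 and 531. Adjusted p-value alone gave 3927 and 3716, 3321 and 3019, and 3311 and 3425. A mean of at least 100 gave 1018 lower with Nrf1, 660 higher and 570 lower with Nrf2, and 640 higher for Nrf2 over Nrf1. The pattern of Mt2A held for 19 genes at a fold above 2 and 15 with a mean of at least 100, in place of 63. Scaled to library totals, the share of called genes that were higher changed from 49.0% to 37.8% for Nrf2 over LacZ. No paired analysis was possible because the solved libraries carry no replicate numbers. Counts of 19 to 74 reads limit the precision of Mt2A and Mtf1.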

Other observations

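The study's methods name removal of duplicate reads. In single-end data keeping 1 alignment per position would leave at most 1 read per start position and strand, yet Fth1, which encodes the ferritin heavy chain, had 43226 reads in a library, while its whole gene spans 4512 bases in mouse, and 60 of 13010 genes matched by symbol had more reads than 2 times their mouse span. SAMtools 0.1.18 is named for this step, without its command or settings. Mt2A had at most 74 reads in a library, and whether the handling of duplicates affected its counts was not tested.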
